A study of Homo sapiens with 24 samples.

Results

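Whole-genome doubling by failed cytokinesis was compared between 2 triple-negative breast cancer lines, MDA-MB-231 and HCC1806, by asking for each gene whether the change from parental control to doubled population had the same size and direction in both. The quantity tested was the line difference: the log2 fold change of cytokinesis failure against control in MDA-MB-231 minus the same fold change in HCC1806. A positive line difference means that the transcript changed more upward in MDA-MB-231. It was tested in 10369 of the 29744 genes in the deposited table, those expressed in both lines, over 12 of the 24 libraries of the series. The 4 groups were MDA-MB-231 cytokinesis failure, MDA-MB-231 control, HCC1806 cytokinesis failure and HCC1806 control, with 3 biological replicates each. A cytokinesis failure population had doubled its genome by failing to divide, was sorted by FACS and was expanded. A control was the parental aneuploid population of the same line, so every group is aneuploid and none is a diploid reference. All cells grew for 48 hours without further treatment before polyA RNA was read by TAGseq, a method that sequences the 3′ ends of transcripts. The series also holds fusion and mitotic slippage populations of each line, which share these controls. There is 1 doubled population per route and line, so differences between lines and differences between individually derived populations cannot be told apart, and p-values measure only the spread between replicates of a population.

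Cytokinesis is the last step of cell division, in which an actomyosin ring separates the daughter cells. A cell that fails at this step keeps both sets of chromosomes and both centrosomes in one body, and in untransformed cells the p53 and Hippo pathways are known to halt such cells through CDKN1A (p21) and LATS2. Tumour cells that tolerate doubling go on dividing with extra chromosomes and often with an altered dependence on mitotic motors such as KIF18A and KIFC1. MDA-MB-231 is a mesenchymal line, and HCC1806 is a basal epithelial line.

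The 12 libraries held 2455707 to 4030297 estimated counts, the smallest being MDA-MB-231 cytokinesis failure replicate 1. That library also differed most from its own replicates, with a chi-square per degree of freedom of 2.57 and 2.6 in its pairs and 1.28 to 1.7 in all other replicate pairs, so no pair of replicates agreed within counting noise. Line identity held in every library: the mesenchymal filament gene VIM stood at 2654 to 3071 CPM (counts scaled to a common library size) in MDA-MB-231 and at most 1.91 CPM in HCC1806, and the basal keratin KRT5 at no more than 0.305 CPM in MDA-MB-231 and at 416 to 506 CPM in HCC1806. Of 14 immune markers 7 to 9 were at 0 in all libraries of a group, among them CD3D, CD3E, MS4A1 and ITGAM, and the general leukocyte gene PTPRC stayed at or under 0.808 CPM. The summed immune level ran from 110 to 127 CPM in MDA-MB-231 cytokinesis failure, 71.1 to 80.4 CPM in MDA-MB-231 control, 27 to 31.7 CPM in HCC1806 cytokinesis failure and 37.8 to 40.5 CPM in HCC1806 control. Nearly all of it was CD68, a lysosomal protein that many tumour cells make. Summed fibroblast markers stayed between 2.81 and 4.28 CPM in MDA-MB-231 and between 31.4 and 43.6 CPM in HCC1806, and the part of these markers in the results was not tested. Summed endothelial markers were 5.25 to 7.8 CPM in MDA-MB-231 cytokinesis failure, 2.64 to 3.66 CPM in MDA-MB-231 control and at most 0.824 CPM in HCC1806. The separate MDA-MB-231 ranges came mostly from PECAM1 (4.45, 6.29 and 6.59 CPM in cytokinesis failure, 1.97, 2.13 and 2.12 CPM in control), while CDH5, CLDN5, ERG and VWF were at 0 in both MDA-MB-231 groups. Because equal amounts of RNA entered each library, all changes are relative to the rest of the RNA of a population, and in bulk RNA fewer cells expressing a gene and less RNA per cell cannot be told apart.

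Most genes called in one line were not called in the other. edgeR's quasi-likelihood test called the line difference of 838 of 10369 genes (8.08%) at a Benjamini-Hochberg adjusted p below 0.05, 452 positive (4.36%) and 386 negative (3.72%). A size of 1 or more on the log2 scale was reached by 147 of these, 86 positive and 61 negative. In MDA-MB-231 alone, cytokinesis failure changed 604 genes (5.83%), with 313 rising (3.02%) and 291 falling (2.81%); 26 changed by 1 or more. HCC1806 had 1446 changed genes (13.9%), of which 695 rose (6.7%) and 751 fell (7.24%), and 97 changed by 1 or more. Without HCC1806 cytokinesis failure replicate 1 this count was 925. The median standard error of a gene's effect was 0.12 in MDA-MB-231 and 0.121 in HCC1806. Across the 10369 genes the effects of both lines correlated weakly (Pearson r = 0.0351, Spearman rho = 0.0524), as a description over genes that share libraries and are not independent. The positive share of the calls, 53.9%, depended on the method: limma on log2(TPM + 1) gave 39% and DESeq2 60.4%. The median line difference over all genes was -0.053 in the first and 0.0068 in the second.

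Among the 838 genes, 103 (0.993% of all tested) were called in each line in opposite directions, 68 of them higher after cytokinesis failure in MDA-MB-231 and lower in HCC1806, and 35 the other way. A further 436 were called in HCC1806 alone, 167 in MDA-MB-231 alone and 124 in neither line on its own. In 8 the lines moved the same way by different amounts. These were ANKRD1, CD55, CDA, CTGF, INHBB, LGALS1, MAL2 and PLAU, of which all but LGALS1 fell in both lines. Called in both lines in the same direction, whatever the line difference, were 105 genes (1.01%), 47 higher and 58 lower. The 208 genes called in both lines make up 34.4% of the MDA-MB-231 calls and 14.4% of the HCC1806 calls.

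**Figure D1:**
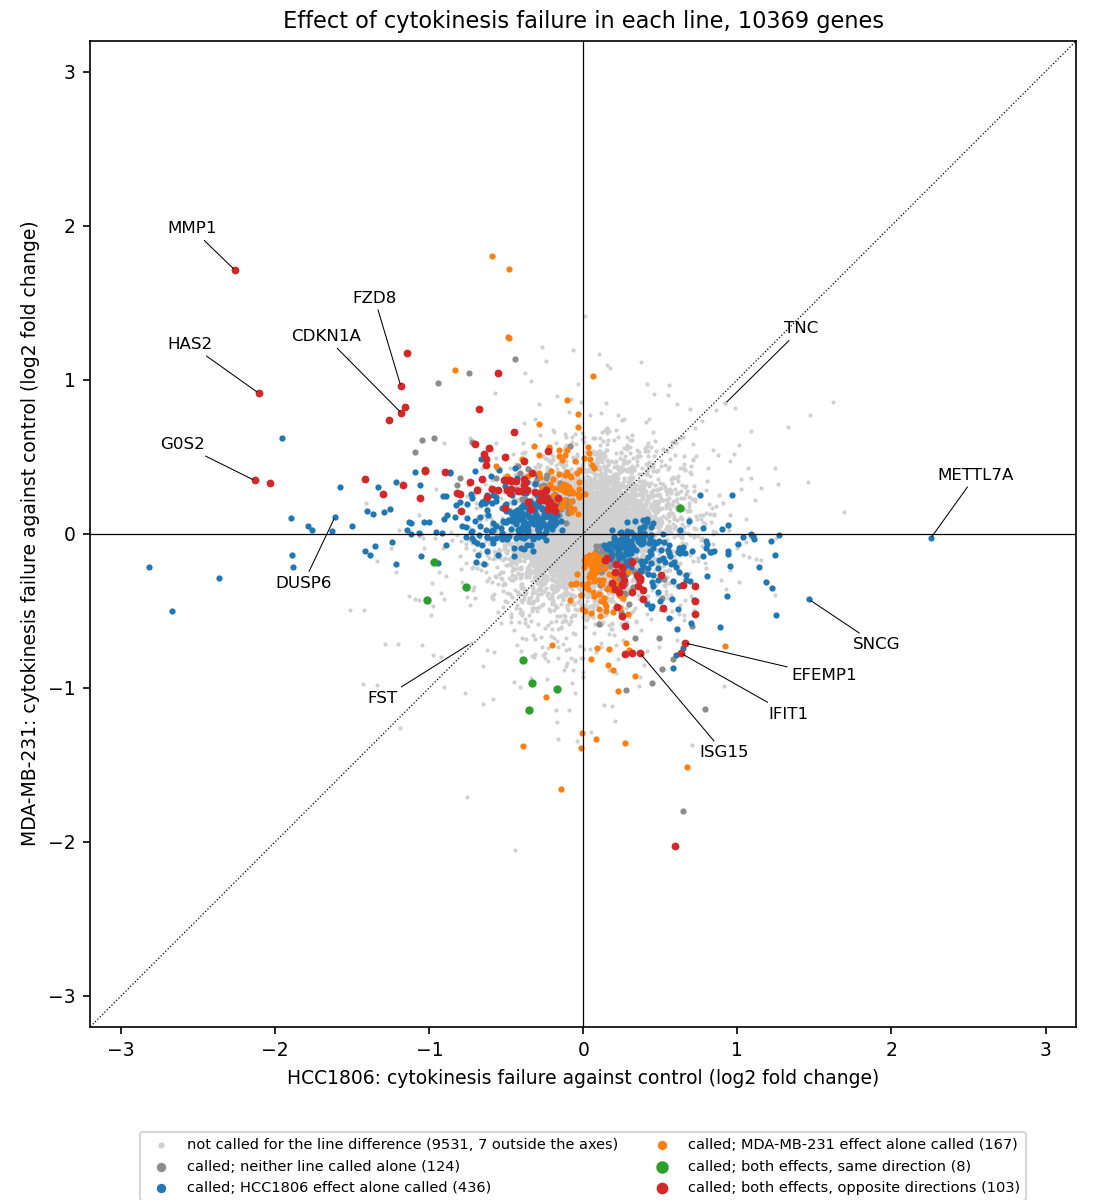
Each point is 1 of 10369 genes, placed by its log2 fold change of cytokinesis failure against control in HCC1806 (horizontal axis) and MDA-MB-231 (vertical axis), with colours for the classes of the 838 genes whose line difference was called. The 103 red points lie in the upper left and lower right quadrants, where the lines moved in opposite directions, and 7 genes outside the axes, none of them called, are not drawn.

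The largest positive line difference among genes of sufficient level in both lines was that of HAS2, which encodes a hyaluronan synthase that builds a major matrix polysaccharide. HAS2 stood at 17.4, 23.4 and 16.1 CPM in MDA-MB-231 cytokinesis failure and 9.0, 10.7 and 10.8 CPM in MDA-MB-231 control. In HCC1806 it stood at 9.8, 6.6 and 7.32 CPM in cytokinesis failure and 30.6, 38 and 34.7 CPM in control. The groups did not overlap in either line, with cytokinesis failure above control in MDA-MB-231 and below it in HCC1806. The fold changes were 0.91 ± 0.18 (SE; adjusted p = 0.000224) and -2.11 ± 0.17 (adjusted p = 6.2e-17), and the line difference 3.02 ± 0.25 (adjusted p = 4.68e-16). HAS2-AS1, the antisense transcript that overlaps it, had a line difference of 2.32 ± 0.46 (adjusted p = 0.000186) at 2.67 to 7.58 CPM on group average, and since no strand setting is stated its reads cannot be told apart from those of HAS2. Its MDA-MB-231 effect alone was lost without any 1 of cytokinesis failure replicates 1 and 3 and control replicates 1 and 3 of that line (adjusted p up to 0.14).

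G0S2, an inhibitor of the triglyceride lipase ATGL (chromosome 1, 209675412 to 209676390, GRCh38), followed with a line difference of 2.48 ± 0.19 (adjusted p = 2.13e-17). Its level was 134, 147 and 143 CPM in MDA-MB-231 cytokinesis failure and 109, 110.0 and 117 CPM in MDA-MB-231 control, a rise of 0.35 ± 0.068. HCC1806 had 4.5, 6.05 and 7.06 CPM in cytokinesis failure and 25.1, 29.2 and 24 CPM in control, a fall (-2.13 ± 0.17). The HCC1806 effect of G0S2 was the larger in size, and groups overlapped in neither line. The promoter of G0S2 is shown because G0S2 follows HAS2 among the 10 genes chosen for large positive line differences. It is taken from the RefSeq promoter table, 250 bases before to 50 after the start on GRCh38.p14 (chromosome 1, 209675162 to 209675461, plus strand), beside that of METTL7A, first among the 10 genes chosen for large negative ones (chromosome 12, 50924765 to 50925064, plus strand). Capitals would mark an AP-1 (TGANTCA), CRE (TGACGTCA) or E-box (CACGTG) match on either strand, and neither window holds one.
G0S2: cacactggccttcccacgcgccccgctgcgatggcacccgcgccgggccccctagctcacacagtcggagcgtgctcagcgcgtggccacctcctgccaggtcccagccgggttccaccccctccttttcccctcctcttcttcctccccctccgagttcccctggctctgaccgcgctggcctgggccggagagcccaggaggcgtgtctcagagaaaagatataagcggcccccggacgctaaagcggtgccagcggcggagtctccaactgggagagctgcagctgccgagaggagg
METTL7A: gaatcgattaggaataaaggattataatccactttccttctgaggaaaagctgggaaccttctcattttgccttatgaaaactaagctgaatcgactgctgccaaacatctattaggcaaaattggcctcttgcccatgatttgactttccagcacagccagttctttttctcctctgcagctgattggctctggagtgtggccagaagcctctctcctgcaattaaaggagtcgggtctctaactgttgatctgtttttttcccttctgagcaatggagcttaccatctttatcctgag

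CDKN1A, the p53-responsive inhibitor of cyclin-dependent kinases, had a line difference of 1.97 ± 0.12 (adjusted p = 4.39e-21). Its level was 149, 159 and 154 CPM in MDA-MB-231 cytokinesis failure, against 91.7, 90.6 and 87 CPM in MDA-MB-231 control. In HCC1806 cytokinesis failure it was 22.3, 20.6 and 26.7 CPM, against 50.2, 58 and 50.8 CPM in control. Transcript levels rose by 0.78 ± 0.067 in MDA-MB-231 (1.72-fold) and fell in HCC1806 to 0.441 of the control level. FZD8, a Wnt receptor, had 23.4, 32 and 20.8 CPM in MDA-MB-231 cytokinesis failure and 12.1, 14 and 13.5 CPM in control. In HCC1806 FZD8 had 7.15, 7.7 and 6.02 CPM in cytokinesis failure and 14.4, 15.1 and 17.8 CPM in control. Its line difference was 2.14 ± 0.27 (adjusted p = 4.45e-09), again with separate groups and opposite directions. GPR153, an orphan receptor, moved the same way (MDA-MB-231 0.83 ± 0.087, HCC1806 -1.16 ± 0.12, line difference 1.98 ± 0.14). TLR4, the lipopolysaccharide receptor, had effects of 0.74 ± 0.18 in MDA-MB-231 and -1.26 ± 0.29 in HCC1806, and the first was lost without MDA-MB-231 control replicate 2 (adjusted p = 0.111).

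Of the other genes among the 10 largest positive differences, TMEM154 rose in MDA-MB-231 (1.80 ± 0.31; means of 7.85 CPM after cytokinesis failure and 2.17 CPM in control) and was not called in HCC1806 (-0.59 ± 0.22, adjusted p = 0.0635). The anthrax toxin receptor ANTXR2 rose slightly in MDA-MB-231 (0.33 ± 0.058) and fell in HCC1806 (-2.04 ± 0.25), where its mean was 2.48 CPM after cytokinesis failure and 10.5 CPM in control. The sheddase ADAM8 had the same pattern (0.35 ± 0.074 and -1.42 ± 0.27). The line differences of the 10 genes, which were chosen for their size, ran from 1.77 to 3.02.

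Negative line differences were led by METTL7A, a methyltransferase-like protein of lipid droplets and the endoplasmic reticulum (chromosome 12, 50925015 to 50932508, GRCh38). METTL7A had 21.4, 24.2 and 23.5 CPM in MDA-MB-231 cytokinesis failure and 20.2, 26.8 and 24.1 CPM in MDA-MB-231 control. HCC1806 cytokinesis failure had 17.8, 17 and 17.3 CPM, against 3.75, 2.81 and 4.1 CPM in HCC1806 control. The groups overlapped in MDA-MB-231 and lay far apart in HCC1806, where METTL7A rose by 2.25 ± 0.23 (4.77-fold, adjusted p = 2.51e-12), giving a line difference of -2.28 ± 0.28. SNCG, gamma-synuclein, had 10.1, 7.55 and 12.1 CPM in MDA-MB-231 cytokinesis failure and 12.9, 12.5 and 14.3 CPM in MDA-MB-231 control, which was not called (-0.43 ± 0.22, adjusted p = 0.305). In HCC1806 SNCG had 84, 88.5 and 71.9 CPM in cytokinesis failure and 32.6, 26 and 29.2 CPM in control, a rise of 1.47 ± 0.12, and the line difference was -1.89 ± 0.26.

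CST6, the cysteine protease inhibitor cystatin E/M, changed in MDA-MB-231 instead. It fell in MDA-MB-231 to 3.64, 6.29 and 6.32 CPM after cytokinesis failure, against 12.7, 16.8 and 14.3 CPM in control (-1.36 ± 0.22). In HCC1806 CST6 had 20.9, 17.6 and 17 CPM in cytokinesis failure and 18.5, 13.7 and 13.7 CPM in control, overlapping groups with no call (0.27 ± 0.17). MT1F, a metal-binding metallothionein with close paralogs, and the zinc finger gene CASZ1 had line differences of -1.50 ± 0.38 and -1.39 ± 0.32. Both rose in HCC1806 (1.19 ± 0.23 and 0.60 ± 0.15) and were not called in MDA-MB-231 (-0.31 ± 0.3 and -0.79 ± 0.28). The scaffold gene NEDD9 (line difference -1.39 ± 0.33) and LOC100288911 (-1.45 ± 0.35) rose in HCC1806 by 0.65 ± 0.19 and 0.58 ± 0.16 and were not called in MDA-MB-231. The larger part of both line differences lay in the uncalled MDA-MB-231 effects, which were below 0. PQLC3 (-1.49 ± 0.46) and ZNF613 (-1.39 ± 0.42) averaged at most 6.12 and 6.77 CPM in any group. The PQLC3 call was lost without any 1 of MDA-MB-231 cytokinesis failure replicates 1 and 3, MDA-MB-231 control replicates 1 and 2, HCC1806 cytokinesis failure replicate 3 and HCC1806 control replicates 1 and 2 (adjusted p up to 0.114), and in thinned libraries (0.139). The ZNF613 call was lost without MDA-MB-231 cytokinesis failure replicate 3, MDA-MB-231 control replicate 2, HCC1806 cytokinesis failure replicate 2 or HCC1806 control replicates 2 or 3 (adjusted p up to 0.076), and in thinned libraries (0.137).

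Genes that fell in MDA-MB-231 and rose in HCC1806 included EFEMP1, IFIT1, TGFB2, BCAS4, PLAC8 and LIMCH1, chosen by the smaller of their 2 effects. EFEMP1, the matrix glycoprotein fibulin-3, had 10.5, 10.8 and 9.75 CPM in MDA-MB-231 cytokinesis failure and 17.7, 18 and 15.3 CPM in MDA-MB-231 control. In HCC1806 EFEMP1 had 132, 119 and 128 CPM in cytokinesis failure and 83.6, 84.4 and 71.9 CPM in control. No groups overlapped, and the effects were -0.71 ± 0.17 and 0.66 ± 0.076 (line difference -1.37 ± 0.19, adjusted p = 8.24e-08). TGFB2, a ligand of the TGF-beta receptors, had 88.9, 76.5 and 82.5 CPM in MDA-MB-231 cytokinesis failure and 112, 122 and 118 CPM in control. HCC1806 had 44, 36.6 and 34.8 CPM of TGFB2 in cytokinesis failure and 27.4, 18.6 and 23 CPM in control (line difference -1.25 ± 0.15). The placenta-specific gene PLAC8 (-0.44 ± 0.083 in MDA-MB-231, 0.72 ± 0.1 in HCC1806) and the actin-associated LIMCH1 (-0.43 ± 0.083 and 0.38 ± 0.099) also changed in opposite directions. BCAS4 had -0.48 ± 0.14 in MDA-MB-231 and 0.52 ± 0.16 in HCC1806. Its MDA-MB-231 effect was lost without MDA-MB-231 cytokinesis failure replicates 2 or 3 or control replicates 2 or 3 (adjusted p up to 0.195), and its HCC1806 effect without HCC1806 cytokinesis failure replicate 1 or control replicate 2 (adjusted p up to 0.114), while the line difference (-1.0 ± 0.21) kept its call.

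**Figure D2:**
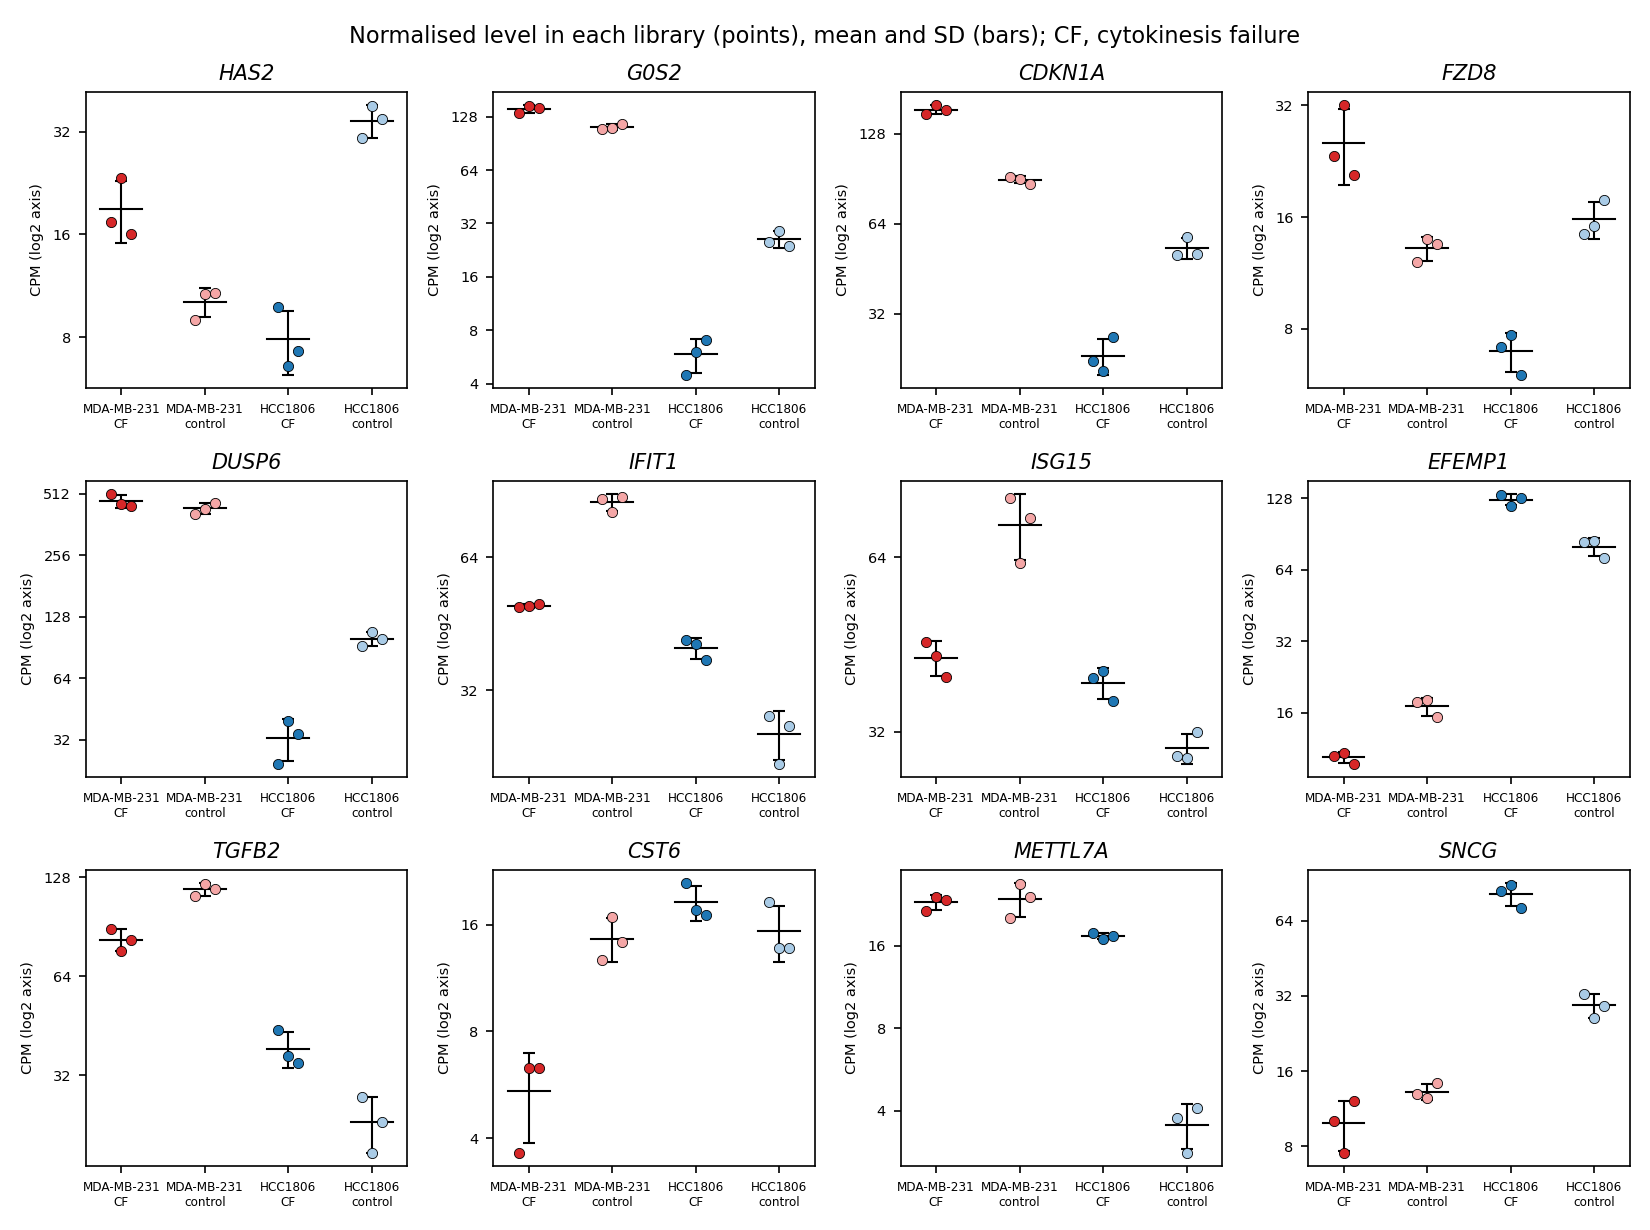
Points are the levels of 12 genes in each library in CPM on a log2 axis, with the mean and SD of 3 replicates per group, cytokinesis failure (CF) left of its control. HAS2, CDKN1A and FZD8 were higher after cytokinesis failure in MDA-MB-231 and lower in HCC1806, IFIT1, ISG15, EFEMP1 and TGFB2 the reverse, and METTL7A rose in HCC1806 with overlapping groups in MDA-MB-231.

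Immediate early genes and the feedback genes of the ERK kinase cascade had positive line differences throughout. ERK, activated by growth factor receptors and RAS, induces transcription factors such as EGR1, MYC and the AP-1 subunits, growth factor ligands such as EREG and AREG, and its own inhibitors of the DUSP and SPRY families. Of 31 genes listed, 26 were tested, 17 had a called positive line difference and 0 a negative one, against 4.36% and 3.72% of all genes. The median line difference of the 26 was 0.69, beside -0.00045 over all genes, and all 26 values were above 0. In MDA-MB-231, 4 rose and 0 fell, with a median effect of 0.095, against 3.02% and 2.81% of all genes. In HCC1806, 1 rose and 18 fell, with a median of -0.53, against 6.7% and 7.24%. The count of positive calls ran from 13 (limma on log2(TPM + 1)) to 18 over the alternatives, and from 16 to 18 when single libraries were left out.

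The feedback phosphatase DUSP6, which inactivates ERK itself, had 507, 456 and 444 CPM in MDA-MB-231 cytokinesis failure and 409, 432 and 462 CPM in MDA-MB-231 control. In HCC1806 DUSP6 had 24.4, 39.3 and 34 CPM in cytokinesis failure and 92.3, 108 and 99.5 CPM in control. Groups overlapped in MDA-MB-231 and were separate in HCC1806, where DUSP6 fell to 0.327 of its control level (-1.61 ± 0.096; line difference 1.72 ± 0.11, adjusted p = 2.48e-15). The related phosphatases DUSP4 (line difference 1.49 ± 0.13) and DUSP5 (1.07 ± 0.17) fell likewise in HCC1806 by 1.37 and 1.06 on the log2 scale. SPRY4, which restrains receptor signalling to RAS, and EGR1, a zinc finger factor, had the lowest HCC1806 effects of the list at -2.82 and -2.67, with line differences of 2.61 ± 0.46 and 2.17 ± 0.56. Both averaged under 2 in log2 CPM in at least 1 line, so these values rest on few counts. The EGFR ligand EREG moved in both lines, in opposite directions, and had 62.7, 75.7 and 64.3 CPM in MDA-MB-231 cytokinesis failure and 51.2, 48.2 and 54 CPM in MDA-MB-231 control. In HCC1806 EREG fell to 45.8, 52.5 and 57.6 CPM after cytokinesis failure, against 106, 108 and 105 CPM in control (line difference 1.44 ± 0.12, adjusted p = 2.99e-15). The ligands AREG (1.02 ± 0.11) and HBEGF (0.75 ± 0.19) fell in HCC1806 by 1.22 and 0.94 and were not called in MDA-MB-231.

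Among the transcription factors, the AP-1 subunit FOSL1 fell in HCC1806 by 1.12 and stood at -0.0037 in MDA-MB-231 (line difference 1.11 ± 0.11). JUN, its dimer partner, rose in MDA-MB-231 by 0.28 and fell in HCC1806 by 0.55 (0.84 ± 0.12). MYC, a driver of growth genes, had 50.1, 53.6 and 52.4 CPM in MDA-MB-231 cytokinesis failure and 53.1, 57.3 and 62.9 CPM in MDA-MB-231 control, with overlapping groups. In HCC1806 MYC fell to 56.2, 56.3 and 54.9 CPM in cytokinesis failure, against 111, 126 and 111 CPM in control, and its line difference was 0.90 ± 0.12 (adjusted p = 1.58e-08). PHLDA1, a growth factor-induced gene, rose in MDA-MB-231 (0.15 ± 0.047) and fell in HCC1806 (-0.79 ± 0.055). JUND rose in both lines (0.31 and 0.23) and IER5, KLF10, ATF3, FOSL2, DUSP1, ETV5, JUNB and SPRED2 had line differences of 0.04 to 0.60 that were not called.

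A list of targets of NF-kB, the inflammatory transcription factor, and of inflammatory cytokines shifted the same way. Of 13 tested genes of 30 listed, 7 had a called positive line difference and 0 a negative one, against 4.36% and 3.72% of all tested genes, with a median of 0.42. MDA-MB-231 had 2 risers and 1 faller among them (3.02% and 2.81% over all genes) and HCC1806 1 riser and 6 fallers (6.7% and 7.24%). MMP1, an interstitial collagenase, had low levels in MDA-MB-231, at 6.06, 3.52 and 4.22 CPM in cytokinesis failure and 1.12, 1.52 and 1.32 CPM in control, so its MDA-MB-231 effect (1.71 ± 0.44) rests on few counts. In HCC1806 MMP1 had 40.5, 55.2 and 60.4 CPM in cytokinesis failure and 224, 267 and 259 CPM in control (line difference 3.97 ± 0.44, adjusted p = 2.72e-09). TNFAIP3, an inhibitor of NF-kB signalling, fell in HCC1806 (-2.37 ± 0.22; line difference 2.08 ± 0.46), and so did the subunit RELB (-1.40; 1.55 ± 0.37) and the chemokine IL8 (-1.12; 1.19 ± 0.32). TNFAIP3 averaged under 2 in log2 CPM in at least 1 line. The adhesion molecule ICAM1 instead rose in MDA-MB-231 (0.87) with a line difference of 0.97 ± 0.27. PLAU, urokinase, fell in both lines, less in MDA-MB-231 (-0.19 ± 0.058) than in HCC1806 (-0.97 ± 0.1). The number of positive calls was 4 under a stricter filter on low counts, which removes lowly expressed members from the test.

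Interferon-stimulated genes, which include antiviral effectors such as the IFIT and OAS families, shifted in the opposite sense. Of 47 listed, 33 were tested: 0 had a called positive line difference and 10 a negative one, against 4.36% and 3.72% of all tested genes. The median was -0.38, and 28 of 33 values were below 0. In MDA-MB-231, 0 rose and 12 fell, against 3.02% and 2.81% of all genes (median effect -0.34). In HCC1806, 5 rose and 1 fell, against 6.7% and 7.24% (median 0.13). The number of negative calls ran from 7 in thinned libraries to 11 on log2(TPM + 1), and from 8 to 11 when single libraries were left out. IFIT1, which binds foreign RNA, had 49.3, 49.6 and 50.3 CPM in MDA-MB-231 cytokinesis failure and 86.9, 81.1 and 87.8 CPM in MDA-MB-231 control. IFIT1 had 41.6, 40.7 and 37.4 CPM in HCC1806 cytokinesis failure and 28, 21.8 and 26.5 CPM in HCC1806 control, so that it fell in one line (-0.78 ± 0.09) and rose in the other (0.64 ± 0.12; line difference -1.41 ± 0.15, adjusted p = 1.42e-11). ISG15, a ubiquitin-like modifier, had 45.7, 43.3 and 39.8 CPM in MDA-MB-231 cytokinesis failure and 81, 62.5 and 74.8 CPM in control. In HCC1806 ISG15 had 39.7, 40.7 and 36.1 CPM in cytokinesis failure and 29.1, 28.8 and 32 CPM in control (line difference -1.14 ± 0.16). No groups of either gene overlapped.

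IFIT2 fell in MDA-MB-231 (-0.76 ± 0.086) and gave no call in HCC1806 (0.29 ± 0.12), as did the RNA sensor IFIH1 (-0.89 and 0.19), the antiviral GTPase MX1 (-1.34 and 0.083), SAMD9L (-0.78 and 0.37) and PARP14 (-0.51 and 0.19). The membrane proteins IFITM1 and IFITM3, near-identical copies between which reads may be split, instead rose in HCC1806 by 0.83 and 0.23. IFIT3 fell in both lines (-0.72 and -0.43). Of 15 tested genes of MHC class I and peptide loading, 0 had a called line difference by edgeR's quasi-likelihood test, against 8.08% of all tested genes, and 0 by DESeq2. By the first test 3 had an unadjusted p under 0.05, and the share of all genes under that threshold was not counted. Without MDA-MB-231 cytokinesis failure replicate 3, 2 were called negative.

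**Figure D3:**
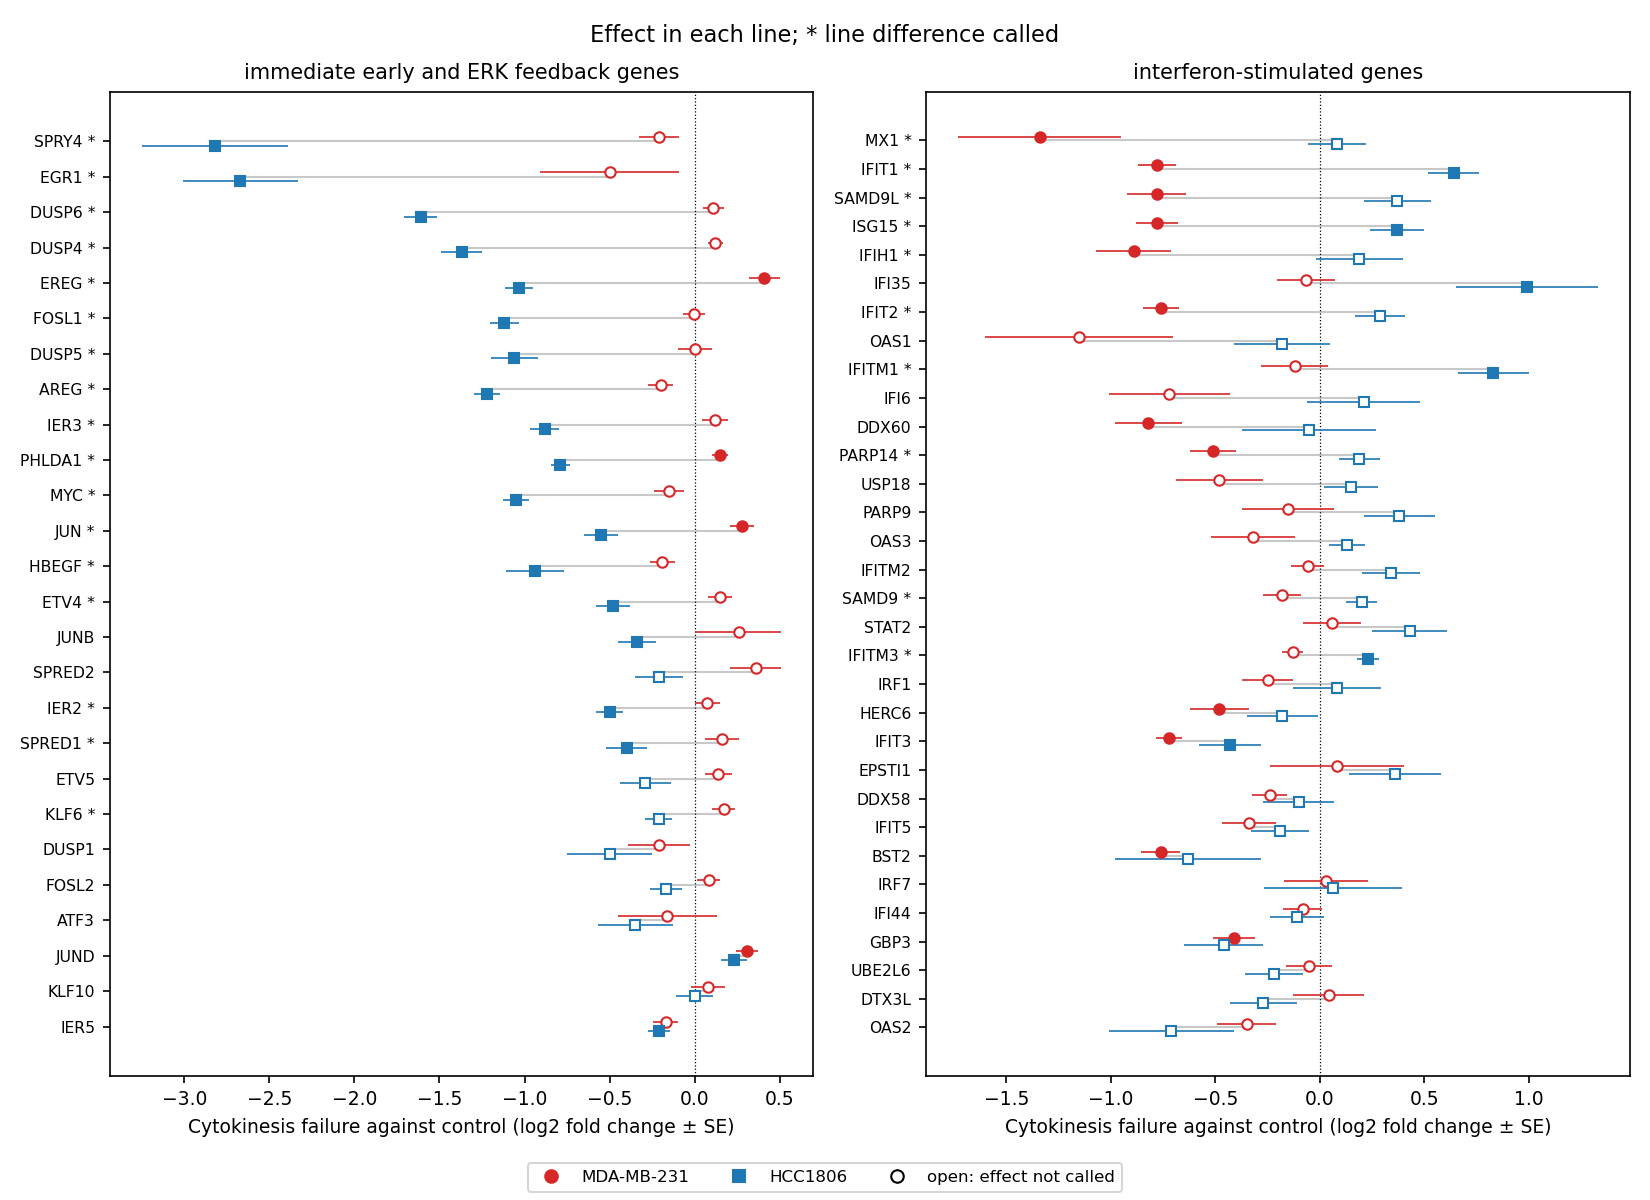
The log2 fold change of cytokinesis failure against control (± SE) is drawn for tested members of 2 lists (1 uncalled interferon-stimulated gene is not drawn), with circles for MDA-MB-231 and squares for HCC1806, filled where the effect was called; an asterisk marks a called line difference. In the immediate early and ERK feedback list 18 members fell in HCC1806 and 0 in MDA-MB-231, and in the interferon-stimulated list 12 fell in MDA-MB-231 and 1 in HCC1806.

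Basal keratinocyte and matrix adhesion genes had median line differences above 0. Integrins and laminins among them anchor epithelial cells to the basement membrane. The value was above 0 for 8 and below 0 for 3 keratinocyte genes, and above 0 for 20 and below 0 for 10 integrin and matrix genes. Over all tested genes, 4.36% were called positive and 3.72% negative, 3.02% rose and 2.81% fell in MDA-MB-231, and 6.7% rose and 7.24% fell in HCC1806. In the keratinocyte list, 6 of 11 tested genes of 36 were called positive and 0 negative (median 0.46), with 2 risers and 1 faller in MDA-MB-231 and 0 risers and 7 fallers in HCC1806. In the integrin and matrix list, 10 of 30 were called positive and 2 negative (median 0.17), with 7 risers and 0 fallers in MDA-MB-231 and 4 risers and 9 fallers in HCC1806. The lists share members, among them ITGA6, LAMA3 and LAMB3. KRT5, at no more than 0.305 CPM in MDA-MB-231, did not fall in HCC1806, with 469, 465 and 506 CPM in cytokinesis failure and 429, 448 and 416 CPM in control. ITGA2, the collagen-binding integrin subunit, had 551, 501 and 537 CPM in MDA-MB-231 cytokinesis failure and 436, 423 and 417 CPM in MDA-MB-231 control. ITGA2 in HCC1806 had 43.5, 36.6 and 46.6 CPM in cytokinesis failure and 91.1, 93.6 and 101 CPM in control, with no overlap in either line (line difference 1.49 ± 0.093, adjusted p = 4.18e-21). LAMB3 and LAMA3, laminin chains of the epithelial basement membrane, had line differences of 1.29 ± 0.092 and 1.15 ± 0.19, and both fell in HCC1806. The laminin receptor subunit ITGA6 rose in MDA-MB-231 (0.17 ± 0.047) and fell in HCC1806 (-0.51 ± 0.048), as did the common beta subunit ITGB1 (0.23 ± 0.039 and -0.24 ± 0.042). LAMA5 and LAMB1 were the negative exceptions (-0.51 ± 0.13 and -0.45 ± 0.088), with rises in HCC1806 of 0.76 and 0.44.

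Mitosis, respiration, translation and cholesterol genes had small negative median line differences. Values were below 0 for 43 of 62 mitosis, 58 of 78 respiration, 60 of 78 ribosomal and 21 of 26 cholesterol genes. Over all tested genes 4.36% were called positive and 3.72% negative, 3.02% rose and 2.81% fell in MDA-MB-231, and 6.7% rose and 7.24% fell in HCC1806. Of 62 tested mitosis and spindle genes, 1 was called positive and 8 negative (median -0.076), with 1 riser and 2 fallers in MDA-MB-231 and 23 risers and 1 faller in HCC1806. HMMR, a spindle and hyaluronan-binding protein, fell in MDA-MB-231 (-0.78 ± 0.16) and rose in HCC1806 (0.27 ± 0.083; line difference -1.05 ± 0.18), and the separase inhibitor PTTG1 did likewise (-0.21 ± 0.063 and 0.25 ± 0.069). Cyclin B1 (CCNB1, -0.25 ± 0.072) and DLGAP5 (-0.33 ± 0.077) rose in HCC1806 by 0.33 and 0.37. The kinetochore motor CENPE was the positive exception (0.40 ± 0.07). The negative count was 5 without MDA-MB-231 control replicate 3 and 4 in thinned libraries. Among 78 nuclear-encoded genes of oxidative phosphorylation, 1 was called positive and 14 negative (median -0.09), with 0 risers and 4 fallers in MDA-MB-231 and 22 risers and 0 fallers in HCC1806. The complex I subunit NDUFA2 (-0.55 ± 0.093), the complex IV subunit COX5B (-0.35 ± 0.077) and the ATP synthase subunit ATP5I (-0.31 ± 0.061) had the smallest adjusted p of these, and the negative count was 9 without HCC1806 control replicate 3. Of 78 cytosolic ribosomal proteins, 1 was called positive and 7 negative (median -0.057), among them RPS14 (-0.49 ± 0.076), and processed copies of these genes make single values uncertain. Their negative count was 4 without any 1 of MDA-MB-231 control replicate 2, HCC1806 cytokinesis failure replicate 2 and HCC1806 control replicate 3, and 12 without HCC1806 control replicate 2. Cholesterol synthesis had 0 positive and 4 negative calls among 26 (median -0.24), among them ACAT2 (-0.51 ± 0.1), FDFT1 (-0.43 ± 0.13) and TM7SF2 (-1.07 ± 0.36). That count was 2 without any 1 of MDA-MB-231 control replicate 3 and HCC1806 cytokinesis failure replicates 1 and 3, and 1 in thinned libraries.

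Genes known for the response to doubling gave a mixed picture. Among 25 tested p53 pathway genes, 5 were called positive and 1 negative, against 4.36% and 3.72% of all tested genes, with a median of -0.08, which lay between -0.21 and 0.1 when single libraries were left out. Among these were, besides CDKN1A, GADD45A (0.50 ± 0.11), ZMAT3 (0.70 ± 0.19), MDM2 (0.29 ± 0.095) and, on the negative side, the kinase PLK2, which fell in MDA-MB-231 (-0.49 ± 0.059). LATS2, the Hippo kinase, had 46.9, 41.5 and 38.5 CPM in MDA-MB-231 cytokinesis failure and 39.4, 37.2 and 45.8 CPM in MDA-MB-231 control. LATS2 had 17.8, 14.3 and 16.5 CPM in HCC1806 cytokinesis failure and 18.5, 15.1 and 18 CPM in control, overlapping in both lines, and its line difference of 0.13 ± 0.21 has a 95% interval of -0.28 to 0.54. Of 28 tested YAP and TAZ targets and Hippo genes, 6 were called positive and 7 negative, against the same shares, with a median of -0.011. WWTR1, which encodes TAZ, rose in MDA-MB-231 and fell in HCC1806 (line difference 0.84 ± 0.091), and IGFBP3, an IGF-binding protein, rose in HCC1806 (0.85 ± 0.054) and was not called in MDA-MB-231 (-0.11 ± 0.075; line difference -0.96 ± 0.092). CTGF and ANKRD1, classic YAP targets, fell in both lines, CTGF more in HCC1806 (-0.43 in MDA-MB-231, -1.02 in HCC1806) and ANKRD1 more in MDA-MB-231 (-0.82 and -0.39).

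The mitotic kinesin KIF18A, which dampens chromosome movements, had 57.4, 49.3 and 49 CPM in MDA-MB-231 cytokinesis failure and 45.6, 47.9 and 50.0 CPM in MDA-MB-231 control. KIF18A had 63.1, 70.4 and 62 CPM in HCC1806 cytokinesis failure and 56.5, 59.8 and 62 CPM in HCC1806 control. Groups overlapped or met in both lines, and the line difference of -0.03 ± 0.14 has a 95% interval of -0.30 to 0.24. The centrosome-clustering kinesin KIFC1 (0.26 ± 0.14, interval -0.024 to 0.54), the centriole kinase PLK4 (0.36 ± 0.21, -0.064 to 0.79) and cyclin D1 (CCND1, 0.05 ± 0.096, -0.15 to 0.25) were not called either. The KIFC1 effect in MDA-MB-231 (0.30 ± 0.099, adjusted p = 0.0579) passed the threshold without MDA-MB-231 cytokinesis failure replicate 3 (0.00875), MDA-MB-231 control replicate 1 (0.013) or HCC1806 control replicate 1 (0.0457). It also passed with the replicate block (0.0282), with no filter (0.0293) and in thinned libraries (0.00534), and its adjusted p ran from 0.00534 to 0.288 over all alternatives. Cyclin E1 (CCNE1) fell in HCC1806 (-0.44 ± 0.092) but its line difference was not called (0.42 ± 0.17, adjusted p = 0.112). CCND2 was below the count filter and was not tested.

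The counts of the remaining lists stand beside 4.36% of all tested genes called positive and 3.72% called negative. Of 25 epithelial genes, 3 were positive and 5 negative (median -0.19), among them keratin 7 (KRT7, -0.70 ± 0.062), the secretory protein AGR2 (-1.07 ± 0.12) and MAL2 (-0.84 ± 0.11). Of 13 mesenchymal genes, 2 were positive and 2 negative: fibronectin (FN1) rose in MDA-MB-231 and fell in HCC1806 (0.81 ± 0.069 and -0.68 ± 0.15; line difference 1.49 ± 0.17), the matrix protein TGFBI fell in HCC1806 (-0.67 ± 0.073), and tropomyosin 1 (TPM1) fell in MDA-MB-231 and rose in HCC1806 (-0.33 ± 0.088 and 0.65 ± 0.061). Of 21 genes of TGF-beta signalling, 3 were positive and 2 negative, among them the feedback inhibitor PMEPA1 (0.85 ± 0.11) and the receptor TGFBR2 (0.50 ± 0.1). Among 22 hypoxia targets 4 were positive and 1 negative: VEGFA, the angiogenic factor, rose in MDA-MB-231 and fell in HCC1806 (0.40 ± 0.07 and -1.02 ± 0.17; line difference 1.43 ± 0.18), NDRG1 rose in MDA-MB-231 (0.32 ± 0.07), and adrenomedullin (ADM) rose in HCC1806 (0.63 ± 0.12). Glycolysis had 2 positive calls and 0 negative ones among 21, with hexokinase 2 (HK2) lower in HCC1806 (-0.95 ± 0.19), and fatty acid synthesis 2 and 1 among 15. Lysosomal genes had 3 positive and 4 negative calls among 39, with CD68 (0.66 ± 0.077 in MDA-MB-231, -0.45 ± 0.11 in HCC1806), LAMP1 (0.45 ± 0.074) and the acid lipase LIPA (-0.58 ± 0.1). NRF2 targets and drug metabolism had 3 and 1 among 30, with AKR1C3, one of several near-identical reductases, lower in HCC1806 (-1.26 ± 0.13). Cytoskeletal genes had 4 and 5 among 32, with TPM1 again, the myosin heavy chain MYH10 (-0.55 ± 0.12) and TPM4 (0.39 ± 0.067) among them. The unfolded protein response had 0 and 2 among 34, chaperones 0 and 1 among 31, DNA replication 1 and 2 among 48 and centrioles 1 and 1 among 29. Such small counts moved with single libraries: left out in turn, they gave 1 to 4 negative calls for replication, 0 to 2 for centrioles, 3 to 5 for the cytoskeleton, 1 to 2 for the unfolded protein response and for chaperones, and 1 to 3 positive calls for glycolysis. On log2(TPM + 1) the positive calls were 1 for hypoxia targets and 1 for epithelial genes.

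**Figure D4:**
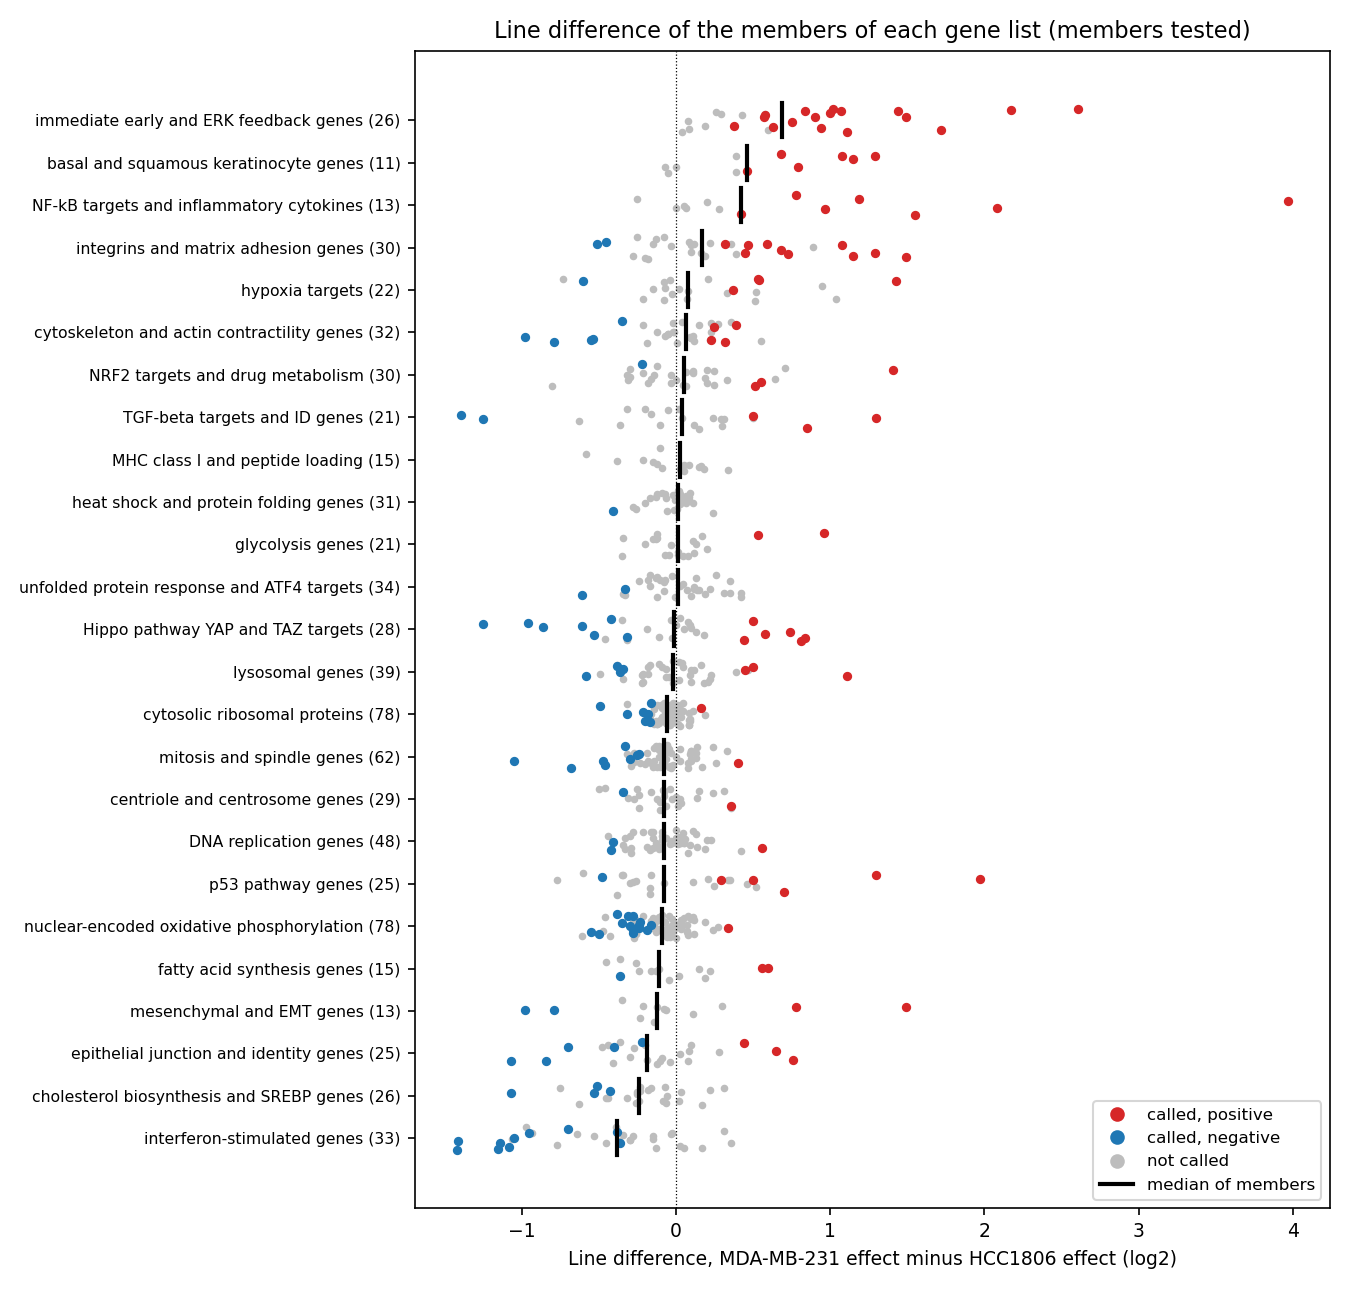
Each row is a gene list with the number of tested members, each point the line difference of 1 member (log2, MDA-MB-231 effect minus HCC1806 effect), and each bar the median of the list. Immediate early and ERK feedback genes have the highest median (0.69) and interferon-stimulated genes the lowest (-0.38), with 17 and 10 called members all on one side.

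Of the genes called in both lines, 105 changed in the same direction. The mean effect over the lines was called for 1133 genes (10.9%), 523 higher and 610 lower. FST, the activin antagonist follistatin, had 47.3, 52.3 and 54.5 CPM in MDA-MB-231 cytokinesis failure and 81.3, 90.6 and 83.3 CPM in MDA-MB-231 control. FST had 42.4, 46.4 and 45.8 CPM in HCC1806 cytokinesis failure and 76.7, 72.5 and 74 CPM in HCC1806 control, a fall in both lines (-0.71 ± 0.086 and -0.73 ± 0.089; line difference 0.02 ± 0.12, 95% interval -0.23 to 0.27). LFNG, a glycosyltransferase that modifies Notch, rose in both (0.61 ± 0.12 and 0.59 ± 0.1; interval of the line difference -0.29 to 0.32), as did ATXN1 (0.58 ± 0.13 and 0.71 ± 0.13). The matrix protein TNC, the cyclase QPCT and the retinal reductase DHRS3 rose in both lines by 0.55 to 0.99, and the focal adhesion gene TNS4, the cytokine receptor IL7R, TRNP1 and DDX60L fell in both, by 0.77 to 1.43 on the log2 scale. These 7 averaged 3.32 to 9.89 CPM in the MDA-MB-231 groups, and their calls in MDA-MB-231 depended on single libraries of that line. Left out, cytokinesis failure replicate 1 ended the call of QPCT, DHRS3 and TNS4, replicate 2 that of QPCT, TNS4, IL7R, TRNP1 and DDX60L, and replicate 3 that of TNC, DHRS3 and TRNP1. Control replicate 1 ended that of QPCT, DHRS3, IL7R and DDX60L, replicate 2 that of TNC, QPCT, DHRS3, TNS4 and TRNP1, and replicate 3 that of TNC, QPCT, DHRS3 and TNS4. The highest adjusted p of these was 0.326, for DHRS3. In HCC1806, the QPCT call ended without cytokinesis failure replicates 1 or 2 or control replicates 1 or 3, and that of DDX60L without cytokinesis failure replicates 2 or 3 or control replicates 1 or 2 (adjusted p up to 0.128 and 0.153).

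The line difference of cytokinesis failure was also tested against that of the other routes. The contrast was cytokinesis failure minus the mean of fusion and mitotic slippage in MDA-MB-231, minus the same in HCC1806, from which the controls cancel. It can be called through changes in fusion or slippage, so a call does not show a line difference particular to cytokinesis failure. This contrast was called for 1396 genes (13.5%, both directions together). In the immediate early and ERK feedback list 11 of 26 were called positive and 0 negative. Their median was 0.26, beside 0.69 for the line difference against control. In the interferon-stimulated list 0 were called positive and 14 of 33 negative, with a median of -0.51, beside -0.38 against control. Integrin and matrix genes had 10 positive and 2 negative calls of 30, and keratinocyte genes 5 and 1 of 11. The list of NF-kB targets and inflammatory cytokines had 3 and 1 of 13, hypoxia targets 1 and 6 of 22, and MHC class I genes 0 and 6 of 15. For the line difference against control, the hypoxia calls were 4 positive and 1 negative, and the MHC class I calls 0 and 0. HAS2 (3.11), EREG (1.59), DUSP6 (1.22), ITGA2 (1.16) and CDKN1A (0.96) were above 0 and EFEMP1 (-1.54), METTL7A (-1.35), ISG15 (-1.13) and IFIT1 (-1.04) below it, with adjusted p of at most 1.21e-06. G0S2 gave 0.56 (adjusted p = 0.0468), MMP1 0.62 (0.165) and TMEM154 0.033 (0.964). The line differences of the other routes, each against the same controls, stood beside these as follows. HAS2 had 3.02 for cytokinesis failure, -1.50 for fusion and 1.32 for slippage. G0S2 had 2.48, 2.46 and 1.38, and MMP1 3.97, 3.63 and 3.08, in the same order of routes. CDKN1A had 1.97, 0.74 and 1.27, and IFIT1 -1.41, -0.60 and -0.15. FST had 0.02, -0.89 and 0.048.

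By chromosome arm, 10187 genes (98.2%) were placed, and 41 arms held at least 20 tested genes. The median line difference was lowest on 5q (-0.13, 391 genes, 12 called positive and 47 negative) and 22q (-0.075, 233 genes, 6 and 14), and highest on 10p (0.17, 96 genes, 12 and 1) and 4q (0.14, 238 genes, 34 and 5). On 5q the median effect was -0.15 in MDA-MB-231 and -0.02 in HCC1806. On 4q it was -0.011 in MDA-MB-231 and -0.16 in HCC1806, and on 10p 0.044 and -0.15. The signs of the median line differences of 5q, 22q, 4q and 10p were the same in all alternatives run. Their medians were -0.18 to -0.11 on 5q, -0.14 to -0.053 on 22q, 0.069 to 0.19 on 4q and 0.12 to 0.19 on 10p. Named genes of these arms included RHOBTB3 (-0.51 ± 0.066), EDIL3 (-1.16 ± 0.18), NDUFA2, RPS14 and PTTG1 on 5q. On 22q they included APOL2 (-0.87 ± 0.16), APOL6 (-0.77 ± 0.14) and LGALS1 (-0.46 ± 0.084). On 4q they included AREG, EREG, ANTXR2 and TMEM154, and on 10p NET1 (0.82 ± 0.074), ITGB1 and FZD8. Not every named gene of these arms is given here. EREG and AREG thus lie on 4q, where most line differences were positive (72.3% of 238 genes), while ITGA2 on 5q ran against its arm. The DNA content of these populations was not analysed here, and the part of copy number in these shifts was not tested.

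**Figure D5:**
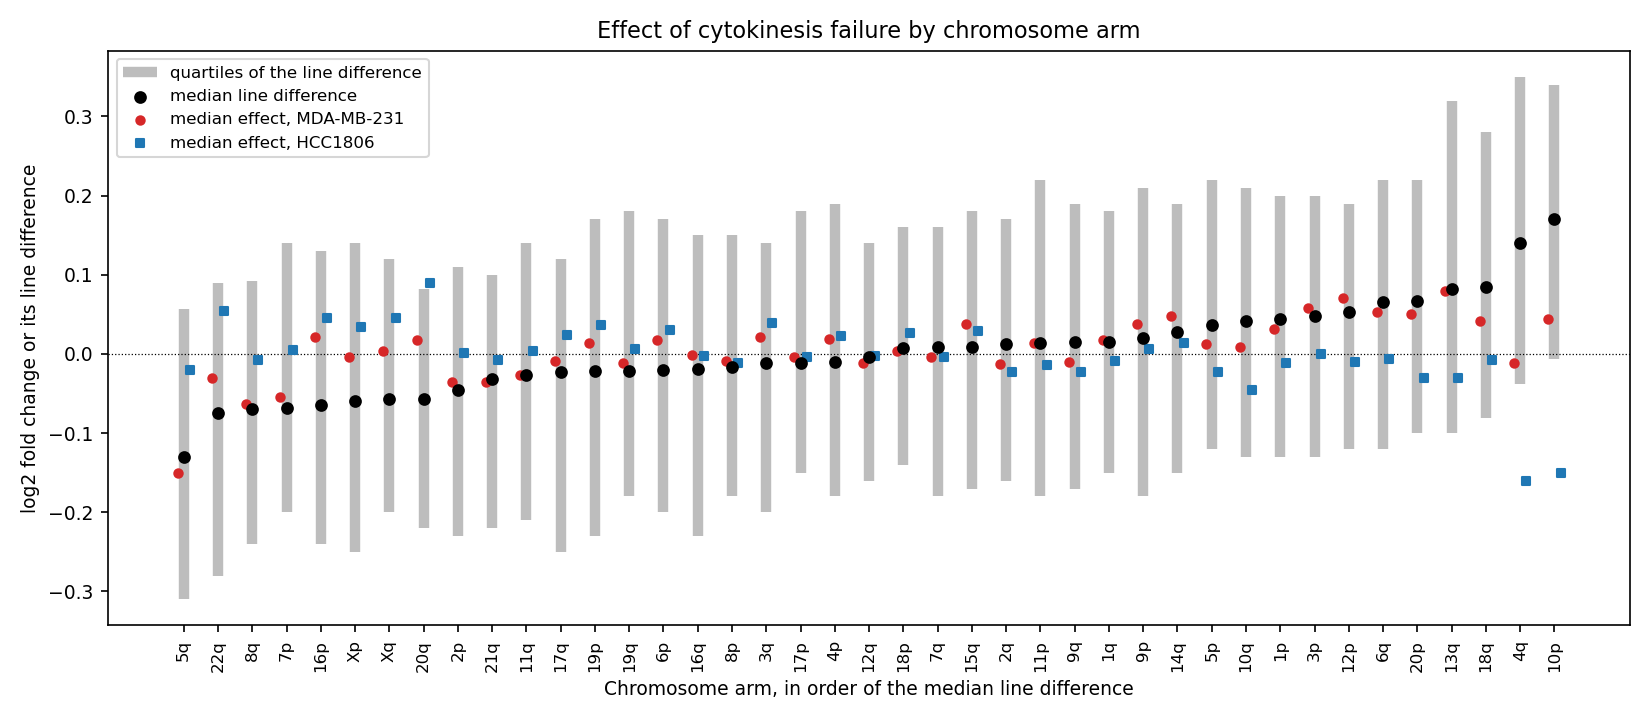
For each chromosome arm with at least 20 tested genes, the black point is the median line difference, the grey bar its quartiles over genes, and the circles and squares the median effects in MDA-MB-231 and HCC1806 (log2 scale). Arm 5q lies lowest with a low MDA-MB-231 median, and 4q and 10p highest with low HCC1806 medians.

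AP-1 sites were looked for in the promoters because several AP-1 genes are in the list above. Of 8427 tested genes with a promoter entry, 4.12% held the AP-1 letters on either strand, beside 29 of 383 genes with a positive call (7.57%) and 13 of 297 with a negative one (4.38%). Among genes higher after cytokinesis failure in MDA-MB-231 and lower in HCC1806 the share was 8 of 58 (13.8%), and among those lower in MDA-MB-231 and higher in HCC1806 it was 0 of 24. In the immediate early and ERK feedback list 1 of 18 promoters held the AP-1 letters (5.56%). The CRE was held by 3.55% of tested genes, 3.39% of the positive and 2.36% of the negative ones, and the E-box by 10.6%, 12% and 10.4%. Among genes higher in MDA-MB-231 and lower in HCC1806 the CRE was in 2 of 58 and the E-box in 4, and among those lower in MDA-MB-231 and higher in HCC1806 the CRE was in 3 of 24 and the E-box in 6. These are matches of letters in 300 bases and do not show a factor bound, and they were not tested.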

How the data were processed

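TAGseq of polyA RNA was deposited as gene-level tables for 24 libraries. Per the submitters' processing notes, STAR and Salmon were used with GRCh38 (hg38). Versions, annotation, strand setting and the treatment of duplicates are not given in the sources used here. The authors deposited estimated counts per gene, 4.41% of which are not whole numbers and were rounded here, and TPM values per gene from the same quantification, which served only as an alternative scale. Reads shared by near-identical paralogs or by overlapping and antisense genes may have been split between them.

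Genes passing edgeR's filterByExpr in the 12 libraries of each line (11424 in MDA-MB-231, 11467 in HCC1806) were tested where they passed in both. All 24 libraries entered 1 fit with 8 groups (TMM, robust quasi-likelihood, R 4.3.3, edgeR 4.0.16), and p-values were adjusted over 10369 genes by Benjamini-Hochberg with a threshold of 0.05. CPM values use TMM library sizes. Alternatives were DESeq2 1.42.0, RLE size factors, limma 3.58.1 on log2(TPM + 1) and log2(TPM + 0.1), other filters, the 12 libraries alone, a replicate block, a minimum change of 1, leaving out each library, leaving out MDA-MB-231 mitotic slippage replicate 3 and MDA-MB-231 cytokinesis failure replicate 1 together (the 2 noisier libraries), and, added after seeing the data, limma-voom with a weight per line and libraries thinned to the smallest total. The procedure was tested on simulated data. Intervals are 95% and cover the spread between replicates.

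The members and all 25 pathway and 5 marker lists were chosen with earlier results of these data known. Genes named are the 10 largest called line differences per direction among genes averaging 2 or more in log2 CPM in each line, the leading 6 opposite and 5 shared genes per direction, up to 3 called genes per list and per named arm, and 10 chosen regulators. Some genes that meet this rule are not reported here, and counts over lists include them. Other list members were named after their values were seen. Promoters are from RefSeq (GRCh38.p14), and the low-pass genome sequencing of the study was not analysed here.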

Additional observations from a re-analysis of the deposited data

Results flagged for a closer look

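The response to cytokinesis failure differed between the lines for 838 genes, each by a test of the difference itself in edgeR's quasi-likelihood fit with Benjamini-Hochberg adjustment over all tested genes. The 90 of these that the rule for named genes picked are listed. Values are line differences on the log2 scale, the MDA-MB-231 effect minus the HCC1806 effect. Other list members named above with called line differences, SPRY4 and EGR1 among them, are not listed. The part of the individual populations in these differences was not tested.

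Positive values came first from MMP1 and HAS2. The line differences were MMP1 (3.97), HAS2 (3.02), G0S2 (2.48), TMEM154 (2.40), ANTXR2 (2.37), HAS2-AS1 (2.32), FZD8 (2.14), TNFAIP3 (2.08), TLR4 (2.00), GPR153 (1.98), CDKN1A (1.97) and ADAM8 (1.77). Next came DUSP6 (1.72), FN1 (1.49), ITGA2 (1.49), EREG (1.44), VEGFA (1.43), AKR1C3 (1.41), LAMB3 (1.29), CD68 (1.11), AREG (1.02), HK2 (0.96), PHLDA1 (0.94) and MYC (0.90). Further values were PMEPA1 (0.85), WWTR1 (0.84), NET1 (0.82), PLAU (0.78), TGFBI (0.78), ITGA6 (0.68), ELOVL6 (0.60), ORC6 (0.56), ACSL4 (0.56), CYP1B1 (0.55), NDRG1 (0.54) and PFKFB3 (0.53). Then followed UGDH (0.51), TGFBR2 (0.50), ITGB1 (0.47), LAMP1 (0.45), CENPE (0.40), TPM4 (0.39) and CETN2 (0.36).

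Negative values came first from METTL7A and SNCG. The line differences were METTL7A (-2.28), SNCG (-1.89), CST6 (-1.63), MT1F (-1.50), PQLC3 (-1.49), LOC100288911 (-1.45), IFIT1 (-1.41), ZNF613 (-1.39), NEDD9 (-1.39), CASZ1 (-1.39), EFEMP1 (-1.37) and TGFB2 (-1.25). Next came PLAC8 (-1.16), EDIL3 (-1.16), ISG15 (-1.14), AGR2 (-1.07), IFIT2 (-1.05), HMMR (-1.05), BCAS4 (-1.0), TPM1 (-0.98), IGFBP3 (-0.96), APOL2 (-0.87), MAL2 (-0.84) and LIMCH1 (-0.81). Further values were APOL6 (-0.77), KRT7 (-0.70), PSPH (-0.61), ADM (-0.60), LIPA (-0.58), NDUFA2 (-0.55), MYH10 (-0.55), ACAT2 (-0.51), RHOBTB3 (-0.51), RPS14 (-0.49), PLK2 (-0.48) and PTTG1 (-0.47). Then followed LGALS1 (-0.46), FDFT1 (-0.43), RPA3 (-0.42), HSPB1 (-0.41), FADS1 (-0.36), COX5B (-0.35), CEP57 (-0.34), ATF4 (-0.33), ATP5I (-0.31), RPL8 (-0.21) and RPL19 (-0.20).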

How the results depend on the processing

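The count of called line differences was 838, and 822 with RLE size factors, 858 with no filter, 820 with a stricter filter or with genes expressed in either line, 842 with the 12 libraries alone and 816 with limma-voom. DESeq2 called 523 (207 negative), and 368 genes in MDA-MB-231, 890 in HCC1806, 679 for the mean effect, 901 against the other routes, 67 opposite and 61 shared. On log2(TPM + 1) the counts were 589 (230 positive), 276 in MDA-MB-231, 659 for the mean, 888 against the other routes, 42 opposite and 42 shared. On log2(TPM + 0.1) they were 561 (215 positive), 256, 643, 867, 33 and 40. Thinned libraries gave 596 line differences and 66 opposite genes. A minimum change of 1 left 147 line differences, 26 genes in MDA-MB-231, 97 in HCC1806, 12 for the mean and 130 against the other routes. Leaving out single libraries gave 658 to 794 line differences and 925 to 1569 genes in HCC1806. The cause of these shifts was not tested. No called line difference changed sign under any of 24 settings. Of the 90 called genes that the rule picked, other list members left aside, 76 were called under every setting that gave them a value. For MMP1, TNFAIP3, HAS2-AS1 and MT1F, which are among these 76, that was 23 of the 24. The 14 that lost their call under at least 1 setting were ACSL4, ATF4, CEP57, CETN2, FADS1, FDFT1, NDRG1, NEDD9, ORC6, PFKFB3, PQLC3, RPA3, TGFBR2 and ZNF613. CETN2 lost it under 16 of the 24 and ORC6 under 11, while ATF4, NEDD9 and TGFBR2 lost it under 1 each. On log2(TPM + 0.1) the MDA-MB-231 effects of TGFB2 and LIMCH1 missed the threshold (adjusted p 0.0623 and 0.057).

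Uncalled values near 0 changed sign. In thinned libraries the line differences were 0.036 for TNC, 0.13 for QPCT, -0.057 for LFNG and 0.11 for TRNP1, and the MDA-MB-231 effects -0.021 for LATS2 and 0.051 for CCNE1. On log2(TPM + 1) and log2(TPM + 0.1), LFNG had -0.043 and -0.036, FST -0.21 and -0.22, CCND1 -0.0075 and -0.0078 and the CCNE1 effect in MDA-MB-231 0.006 and 0.0063, and TRNP1 had 0.015 on the first. Without both noisier libraries the LATS2 effect in MDA-MB-231 was -0.032. With single libraries left out, line differences ran from -0.28 to 0.15 for TNC, -0.12 to 0.1 for LFNG, -0.19 to 0.13 for TRNP1, -0.45 to 0.1 for DDX60L, -0.024 to 0.064 for FST and -0.091 to 0.028 for KIF18A. Effects ran from -0.055 to 0.11 for KIFC1 in HCC1806, and in MDA-MB-231 from -0.032 to 0.13 for LATS2 and -0.067 to 0.051 for CCNE1.

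Pairing by replicate number was not seen: same-numbered cytokinesis failure and control libraries had correlations of -0.0915 to 0.0889, and other pairs of -0.136 to 0.172. These are correlations of deviations from group means, which counting noise also lowers, so they cannot settle whether samples were paired. With the replicate block 764 line differences were called, 753 of them among the 838. Depth limits genes of a few CPM, for which a missing call does not show equal responses.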
